A study of Mus musculus with 12 samples.

Results

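Inflammasome genes were examined as a set of 9, namely the sensors Nlrp3, Nlrp1a, Nlrp1b, Nlrc4 and Aim2, the adaptor Pycard, the caspases Casp1 and Casp4, and the pore-forming protein gene Gsdmd. They were chosen by name through their Ensembl identifiers and were 9 of 55487 genes counted in 2 RNA-seq experiments. The choice was made with earlier results of these data known. An inflammasome is a protein platform in the cytosol that forms when a sensor meets a microbial product or a sign of damage. The sensor recruits ASC, the product of Pycard, which in turn gathers and activates caspase-1. Active caspase-1 cuts the precursors of the cytokines IL-1β and IL-18 and opens gasdermin D, whose fragments form pores in the cell membrane and end in pyroptosis. Mouse caspase-11, the product of Casp4, recognizes cytosolic lipopolysaccharide (LPS) directly and cuts gasdermin D without a sensor. Macrophages are a main site of this pathway, and several of its genes are known to respond to LPS at the level of transcription.

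The first experiment compared bone marrow macrophages (BMMs) of female C57BL/6 mice, labelled as 8 weeks of age, after ovariectomy (OVX), which removes ovarian estrogen, with BMMs of sham-operated mice. BMMs were marrow cells grown with macrophage colony-stimulating factor, and there were 3 libraries for each group. The second experiment compared C57BL/6 bone marrow mesenchymal stem cells (MSCs), also labelled as 8 weeks of age, cultured alone, MSCs sharing medium across a porous transwell membrane with untreated RAW264.7 cells (MSC+RAW-TW), and MSCs sharing it with LPS-treated RAW264.7 cells (MSC+RAW-LPS-TW), with 2 libraries for each group. RAW264.7 is an established mouse macrophage line, and its cells lay on the far side of the membrane. Library sizes ran from 17012923 to 45367105 counts.

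Some libraries stood apart from their labels, which bears on each comparison. Sham libraries 2 and 3, and the 2 MSC+RAW-TW libraries, differed by the same small excess over counting noise at low and high counts, unlike all other pairs of libraries within a group, and each pair was therefore counted as 1 sample. Sham thus had n = 2, MSC+RAW-TW had n = 1, OVX had n = 3, and MSC and MSC+RAW-LPS-TW had n = 2 each. The study's captions describe error bars as the spread of independent experiments, but the sources used here do not tie the libraries to separate animals or cultures, so p-values measure the spread between these libraries, which may be technical. The 12 macrophage markers were each at 1 CPM (count per 1000000 counts of the library, TMM-scaled) or more in all 12 libraries, and summed to 26903 to 27077 CPM in MSC cultured alone. The 12 stromal markers summed to 2876 to 3038 CPM there, and 11 of 12 were at 1 CPM or more in both libraries. The exception was Thy1, a surface marker of many stromal cells, at 0.293 and 0.449 CPM. The libraries labelled MSC therefore carried more macrophage than stromal transcript. Conversely the BMM libraries held 7481 to 8281 CPM of stromal marker. The methods name female mice, yet the libraries of the MSC experiment held 63.4 to 125 CPM of 4 Y-linked genes and at most 0.660 CPM of Xist, against 0 to 0.0523 CPM and 95.7 to 221 CPM in the BMM libraries. In bulk RNA, fewer cells of a type and less RNA per cell cannot be told apart.

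Levels between genes were compared as CPM divided by kilobases of exon (RPKM), because longer transcripts collect more reads. The exon length used covers all annotated exons of a gene, and is 3800 bp for Pycard. Where most transcripts of a gene are shorter than this length, its RPKM is too low, so ranks between members depend on it. In sham BMMs the pore-forming Gsdmd, at 56.7 ± 11.7 RPKM, and the adaptor Pycard were the most abundant members, with Pycard at 55.0 ± 6.84 RPKM (mean ± SD, n = 2). These levels overlapped between libraries. Casp1 followed at 8.98 ± 3.26 RPKM, with Nlrp3 at 5.27 ± 0.227, Casp4 at 4.96 ± 1.79, Aim2 at 3.05 ± 0.859 and Nlrc4 at 2.11 ± 0.00255 RPKM. Nlrp3 overlapped Casp4, and Casp4 overlapped Aim2. The NLRP1 paralogs were the scarcest, with Nlrp1b at 0.440 ± 0.0320 RPKM and Nlrp1a at 0.253 ± 0.216 RPKM, and they overlapped each other. Nlrp1a rested on 16 to 39 counts in each BMM library.

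In OVX BMMs Gsdmd (30.8 ± 4.02 RPKM, n = 3) and Pycard (24.5 ± 4.86) had the highest means, followed by Casp1 at 13.6 ± 6.65 RPKM. Pycard overlapped both Gsdmd and Casp1 between libraries there. In MSC cultured alone, Pycard (24.7 ± 0.789 RPKM, n = 2) and Gsdmd (23.9 ± 2.22) overlapped at the top, with Nlrp3 next at 19.0 ± 0.786 RPKM. In MSC+RAW-TW, Gsdmd led at 48.2 RPKM and Pycard was second at 35.4 RPKM (n = 1). In MSC+RAW-LPS-TW the order was different. The sensor Nlrp3 led at 47.5 ± 5.27 RPKM (n = 2), above Gsdmd at 27.8 ± 2.97 RPKM, with no overlap between libraries. Pycard stood lower in the order, at 7.45 ± 0.720 RPKM, where its range overlapped those of Aim2 (7.66 ± 1.14) and Casp4 (6.89 ± 0.929).

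For the OVX comparison, the question was whether BMMs from estrogen-deficient mice expressed this pathway differently from sham BMMs. Pycard fell by 1.18 on the log2 scale in OVX, a 2.26-fold difference, and was the 1 member of 9 called. Calls needed both a 2-fold difference or more and an edgeR adjusted p no higher than 0.05. Over the 16768 genes tested, 8.46% were called, so 1 of 9 members is near the background. The 9 members' median log2 fold change was 0.10, beside -0.01 over all genes tested. The plot of BMM levels gives every library.

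**Figure D1:**
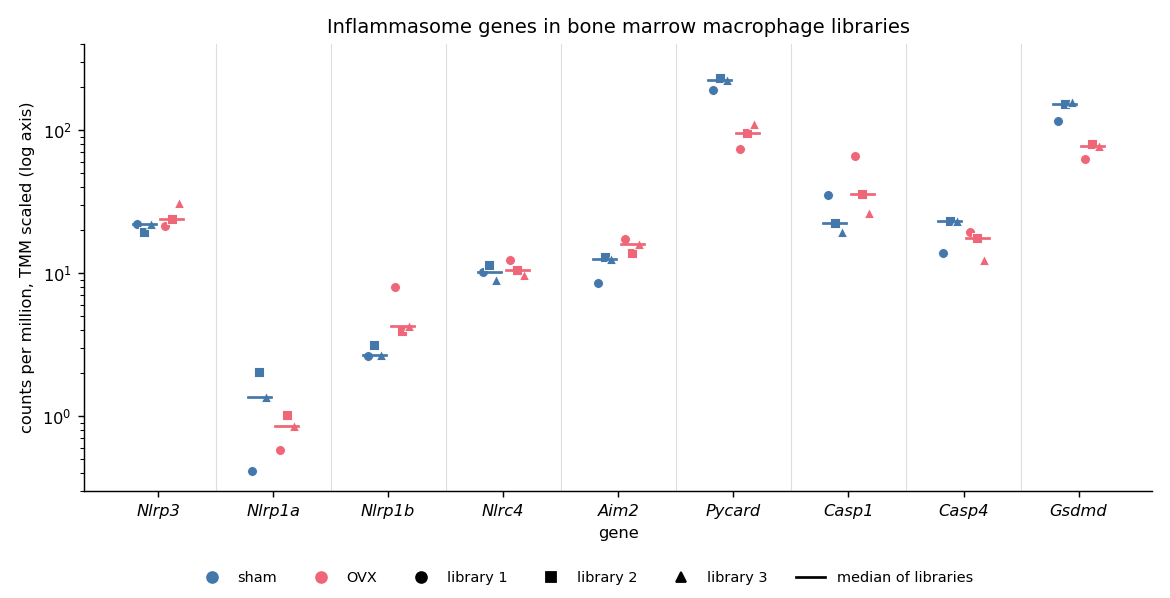
Levels of the 9 genes in BMM libraries, as TMM-scaled CPM on a log axis, with sham in blue, OVX in red, marker shapes for library numbers and a line at the median of each group's libraries. Sham libraries 2 and 3 are the near-identical pair, and Pycard and Gsdmd are lower in each OVX library than in each sham library.

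Among the sensors, Nlrp3 (chr11:59541568-59566956 on GRCm38, plus strand) responds to potassium efflux and membrane damage. It was at 21.4, 23.9 and 31.0 CPM in OVX libraries 1 to 3 and at 22.0, 19.3 and 22.2 CPM in sham libraries 1 to 3. The groups overlapped, and the fitted difference was 0.23 ± 0.21 (log2 fold change ± SE, edgeR adjusted p = 0.507). Nlrc4 (chr17:74425438-74459142, minus strand), which acts with NAIP proteins on bacterial flagellin and secretion needles, was at 12.4, 10.6 and 9.77 CPM in OVX and at 10.2, 11.3 and 9.01 CPM in sham. These values overlapped as well, with a difference of 0.10 ± 0.21 (edgeR adjusted p = 0.785).

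Aim2 (chr1:173350879-173466040, plus strand), a sensor of cytosolic DNA, was at 17.3, 13.8 and 16.0 CPM in OVX and at 8.54, 13.0 and 12.6 CPM in sham. Its OVX libraries lay above its sham libraries by a narrow margin, and the difference of 0.55 ± 0.24 was not called (edgeR adjusted p = 0.172). It was 0.29 without sham library 1, 0.86 without both near-identical sham libraries, and 0.00 when lowess trends on GC content and gene length were removed. Nlrp1b (chr11:71153102-71230733, minus strand) is the paralog that anthrax lethal factor cleaves and activates in some mouse strains. It was at 7.95, 3.92 and 4.23 CPM in OVX and at 2.63, 3.16 and 2.67 CPM in sham. Its groups did not overlap, but the difference of 0.95 ± 0.37 missed the threshold (edgeR adjusted p = 0.124), with OVX library 1 the highest, and was 0.56 without that library. Nlrp1a (chr11:71092236-71144704, minus strand), a paralog linked to pyroptosis of blood progenitors when activated by mutation, was at 0.579, 1.02 and 0.859 CPM in OVX and at 0.417, 2.02 and 1.36 CPM in sham. Its difference of -0.34 ± 0.61 (edgeR adjusted p = 0.753) was smaller than its error.

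Pycard (chr7:127989708-127993867, minus strand) was at 73.5, 95.3 and 110 CPM in OVX and at 191, 231 and 224 CPM in sham. Each OVX library was below each sham library. The difference was -1.18 ± 0.21 (edgeR adjusted p = 0.0136), and it was -1.28 and -1.20 within the 2 series of library codes that the column headers show, each of which holds a library of the near-identical sham pair. It was lost without OVX library 2 (-1.19, edgeR adjusted p = 0.0752), when 309 genes were called in all. The exons of Pycard share 485 bp, or 12.8% of their length, with the antisense gene Gm45205, and the strand setting of the counting is not given in the sources used here. Reads from the pair could not be separated if strand was ignored.

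The caspases showed wide spread between OVX libraries. Casp1 (chr9:5298508-5307290, plus strand) was at 66.2, 35.7 and 26.3 CPM in OVX and at 35.4, 22.4 and 19.4 CPM in sham. OVX library 1 stood above the rest, the groups overlapped, and the difference was 0.60 ± 0.40 (edgeR adjusted p = 0.347). It was 0.14 without OVX library 1, 0.26 without both near-identical sham libraries and 1.04 without sham library 1, and was not called in any of these. Casp4 (chr9:5308828-5336783, plus strand), the next member along the same strand of chromosome 9, was at 19.5, 17.6 and 12.3 CPM in OVX and at 13.7, 23.2 and 23.0 CPM in sham. The groups overlapped (difference -0.17 ± 0.29, edgeR adjusted p = 0.736). Gsdmd (chr15:75862327-75867408, plus strand) was at 62.3, 79.8 and 77.7 CPM in OVX and at 115, 152 and 156 CPM in sham, without overlap. Its difference of -0.89 ± 0.21 passed the p threshold (edgeR adjusted p = 0.0288) but not the fold limit, being 1.86-fold. Without sham library 1 it reached -1.09 and was called (edgeR adjusted p = 0.00837). It missed the p threshold without OVX library 1 (edgeR adjusted p = 0.0896), OVX library 2 (0.105), OVX library 3 (0.0615) or both near-identical sham libraries (-0.66, 0.102).

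Macrophage markers moved with the genes that were lower in OVX. The 12 markers summed to 40555 to 45099 CPM in OVX and to 54740 to 59029 CPM in sham, and 12 of 12 were at 1 CPM or more in every BMM library. GC content moved with the groups too. Across genes, the deviation of a library's counts from the experiment's mean correlated with GC content at Spearman's rho of -0.597 to -0.329 in OVX and 0.207 to 0.508 in sham. By the GC content of the longest annotated transcript, Gsdmd, with 54.4%, is the most GC-rich member, and Casp4, with 38.1%, the least. With these trends removed, Pycard was at -1.42 (edgeR adjusted p = 0.0160), Gsdmd at -0.56 (0.0828), Casp4 at -1.10 (0.0640) and Casp1 at -0.08 (0.895). Osteoclast markers were lower in OVX as well (314 to 321 CPM over 6 genes, against 633 to 773 CPM in sham) and neutrophil markers higher (1202 to 1335 CPM over 10 genes, against 808 to 944 CPM). B cell markers were lower in OVX (61.2 to 88.0 CPM over 6 genes, against 125 to 139 CPM in sham), and dendritic cell markers too (3.61 to 4.26 CPM over 5 genes, against 5.23 to 5.44 CPM). T and NK cell, erythroid and mast cell markers overlapped between both groups, at 4.17 CPM or less. In the libraries of the MSC experiment each of these 5 lists summed to 3.86 CPM or less. The part of cell composition in these differences was not tested.

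Of 75 other genes of the pathway, sorted into 7 lists by role, 66 were tested in BMMs. Of these, 3 were called higher and 4 lower in OVX, or 10.6%, beside the background of 8.46%. Called list genes numbered 1 in place of 7 without OVX library 2 and 4 without OVX library 1. The highest fold among them was that of Casp12, an endoplasmic reticulum caspase, which was at 32.2, 18.4 and 16.2 CPM in OVX and at 7.76, 4.30 and 4.26 CPM in sham (1.88 ± 0.38, edgeR adjusted p = 0.0196). Ddx3x, an RNA helicase that promotes NLRP3 assembly, rose (1.14 ± 0.19), as did the scarce Nlrp10 (1.47 ± 0.39), which was at 0.316 to 1.89 CPM. Zbp1, a sensor of Z-form nucleic acid, fell from between 119 and 132 CPM in sham to between 39.5 and 47.0 CPM in OVX (-1.56 ± 0.17, edgeR adjusted p = 0.00453). Nod1 (-1.16), Nlrx1 (-1.08) and Gm12250 (-1.36), which encodes the GTPase IRGB10, fell as well.

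None of the 6 cytokine genes was called in OVX by edgeR or DESeq2, although 2 were lower at an unadjusted edgeR p under 0.05. No gene of the cytokine list passed the fold limit. Il1b, whose product is the main substrate of caspase-1, was at 31.4, 29.4 and 31.0 CPM in OVX and at 45.2, 40.8 and 43.9 CPM in sham (-0.53 ± 0.17, edgeR adjusted p = 0.0724). Il18bp, whose product binds and blocks IL-18, differed by -0.79 ± 0.21 (edgeR adjusted p = 0.0458), which was below the fold limit. Ninj1, whose product ruptures the membrane after gasdermin pores form, was at 278 to 349 CPM in OVX and 485 to 538 CPM in sham. Its difference of -0.73 ± 0.18 had an edgeR adjusted p of 0.0359, below the fold limit.

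The comparison of MSC+RAW-LPS-TW with MSC cultured alone asks what exposure to LPS-treated macrophages added to the baseline. Of the 9 members, 5 were called. The sensor Nlrp3 and the LPS receptor caspase Casp4 rose, while Nlrp1a, Nlrp1b and Pycard fell. Over 20499 genes tested, 10.9% were called. The members' median log2 fold change was 0.18, beside -0.01 over all genes tested. The GC correlations of these groups overlapped (-0.302 to -0.234 in MSC and -0.276 to -0.140 in MSC+RAW-LPS-TW), and removing the GC and length trends left these 5 members called. All comparisons of this experiment share groups, so their values below are side by side and are not independent. The plot of MSC levels shows all 6 libraries.

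**Figure D2:**
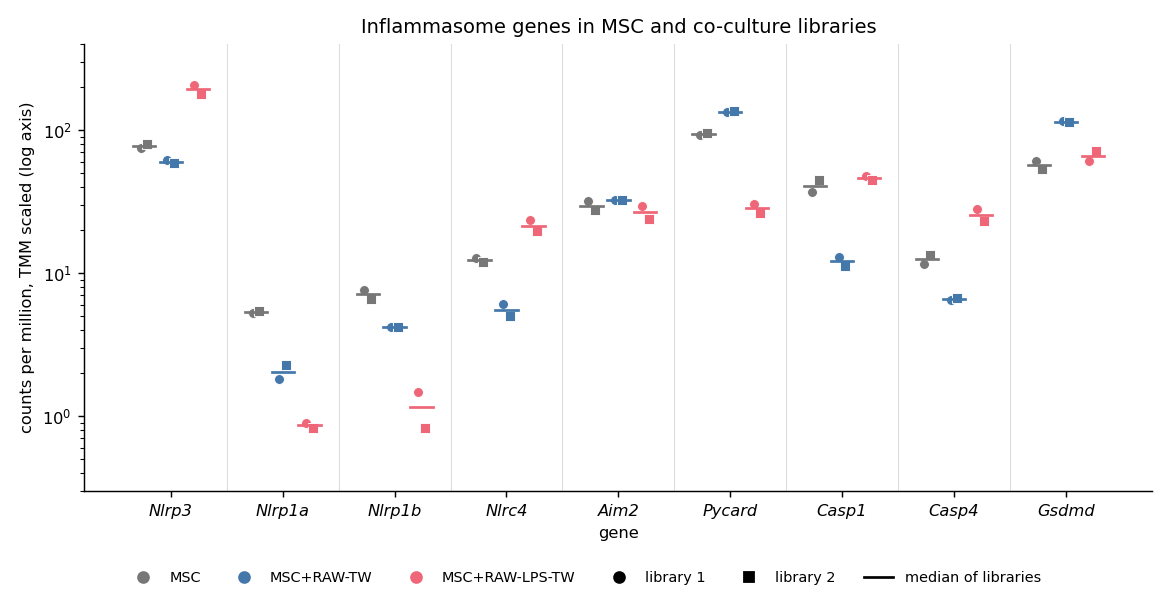
Levels of the 9 genes in the libraries labelled MSC (grey), MSC+RAW-TW (blue) and MSC+RAW-LPS-TW (red), as TMM-scaled CPM on a log axis, with marker shapes for the libraries and a line at the median of each group. The 2 MSC+RAW-TW libraries are the near-identical pair. Nlrp3 is highest, and Nlrp1a, Nlrp1b and Pycard lowest, in MSC+RAW-LPS-TW.

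Nlrp3 was at 75.03 and 79.5 CPM in MSC, at 61.3 and 58.7 CPM in MSC+RAW-TW, and at 208 and 178 CPM in MSC+RAW-LPS-TW. The LPS co-culture stood above the others, and its difference from MSC was 1.32 ± 0.15 (2.49-fold, edgeR adjusted p = 1.1e-05). Against MSC+RAW-TW it was 1.65 ± 0.20 (edgeR adjusted p = 1.4e-05). MSC+RAW-TW itself differed from MSC by -0.34 ± 0.19 and was not called (edgeR adjusted p = 0.191).

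The NLRP1 paralogs went the other way. Nlrp1a was at 5.25 and 5.43 CPM in MSC, at 1.81 and 2.27 CPM in MSC+RAW-TW, and at 0.900 and 0.829 CPM in MSC+RAW-LPS-TW, where it rested on 30 and 26 counts. The 3 groups did not overlap. Nlrp1b was at 7.63 and 6.57 CPM, at 4.23 and 4.23 CPM, and at 1.47 and 0.829 CPM in the same order of groups. Against MSC, the LPS co-culture was lower by -2.62 ± 0.36 for Nlrp1a (6.16-fold, edgeR adjusted p = 5.98e-05) and by -2.62 ± 0.35 for Nlrp1b (edgeR adjusted p = 3.67e-05). Against MSC+RAW-TW the differences were -1.25 ± 0.41 for Nlrp1a (edgeR adjusted p = 0.0246) and -1.90 ± 0.39 for Nlrp1b (edgeR adjusted p = 0.00112). The Nlrp1a call against MSC+RAW-TW was lost with DESeq2 (-1.27, adjusted p = 0.0642), without MSC library 1 (adjusted p = 0.0609), without MSC library 2 (0.0625) and without MSC+RAW-TW library 2 (-1.06, 0.0607). In MSC+RAW-TW against MSC, Nlrp1a was called (-1.37 ± 0.42, edgeR adjusted p = 0.0241) and Nlrp1b was not (-0.72 ± 0.39, 0.172). That Nlrp1a call was lost without MSC library 1 (adjusted p = 0.106), without MSC library 2 (0.129) and with GC and length trends removed (-1.17, 0.0552). Both paralogs are labelled in a heat map of pro-inflammatory genes that the study drew from these samples, so their direction is not independent evidence.

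Nlrp1a and Nlrp1b lie side by side on the minus strand of chromosome 11. Of all 75-base windows of their transcripts, 0.7% of those of Nlrp1a occur in Nlrp1b and 0.4% the reverse, so few reads could be shared. The promoter of Nlrp1a and that of the upstream of 2 Nlrp1b starts in the RefSeq table are alike, with 253 identical bases of 290 aligned (87.2%), and are shown because these members fell together. The window of the other Nlrp1b start (chr11:71201407-71201706) aligned with that of Nlrp1a over 37 bases, 21 of them identical, and held no GAGGAA. The 200 bases before each start, from RefSeq on GRCm38.p6, span chr11:71144705-71144904 for Nlrp1a and chr11:71230734-71230933 for the upstream start of Nlrp1b, both minus strand and written 5′ to 3′. Capitals mark GAGGAA, the core of sites bound by the myeloid factor PU.1, searched on both strands and present in 28.3% of all 32851 promoter windows of 300 bases. The core was found in 6 of the 8 members with a promoter entry, namely Nlrp3, Nlrp1a, Nlrp1b, Aim2, Pycard and Casp1, so it was not limited to members that fell. Counted by window, as the share of 28.3% is, it was in 6 of their 11 windows.
Nlrp1a: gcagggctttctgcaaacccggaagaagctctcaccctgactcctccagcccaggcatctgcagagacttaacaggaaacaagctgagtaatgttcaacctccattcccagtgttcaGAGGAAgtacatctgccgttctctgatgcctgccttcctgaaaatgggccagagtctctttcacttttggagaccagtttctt
Nlrp1b: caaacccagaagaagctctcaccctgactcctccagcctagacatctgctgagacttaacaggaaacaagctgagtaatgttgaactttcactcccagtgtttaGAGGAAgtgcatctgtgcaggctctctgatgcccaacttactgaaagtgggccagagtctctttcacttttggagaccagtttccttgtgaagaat
The core lies at -83 to -78 in Nlrp1a and at -96 to -91 in Nlrp1b, counted from the start, and its surroundings are alike in both.

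Nlrc4 was at 12.7 and 11.9 CPM in MSC, at 6.04 and 4.98 CPM in MSC+RAW-TW, and at 23.5 and 19.6 CPM in MSC+RAW-LPS-TW, with no overlap. Against MSC+RAW-TW it rose by 1.92 ± 0.26 (edgeR adjusted p = 3.57e-05). Against MSC its difference of 0.80 ± 0.19 was 1.75-fold and thus below the fold limit (edgeR adjusted p = 0.00716). It missed the p threshold too without MSC library 2 (edgeR adjusted p = 0.0589). Aim2 was at 31.8 and 27.5, 32.7 and 32.7, and 29.6 and 24.0 CPM in the same order of groups. Its differences of -0.15 ± 0.17 against MSC (edgeR adjusted p = 0.633) and -0.32 ± 0.21 against MSC+RAW-TW (0.238) were not called, nor was MSC+RAW-TW against MSC (0.17 ± 0.21, 0.574). With GC and length trends removed, Aim2 was at -0.91 against MSC+RAW-TW (edgeR adjusted p = 0.00266) and at 0.71 in MSC+RAW-TW against MSC (0.0198), both under the fold limit.

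Pycard, the adaptor, had the largest fall of the 9 members against MSC+RAW-TW. It was at 91.9 and 96.2 CPM in MSC, at 134 and 135 CPM in MSC+RAW-TW, and at 30.2 and 26.4 CPM in MSC+RAW-LPS-TW. The LPS co-culture was lower than MSC by -1.73 ± 0.16 (3.33-fold, edgeR adjusted p = 6.46e-07) and lower than MSC+RAW-TW by -2.28 ± 0.18 (4.85-fold, edgeR adjusted p = 1.77e-07). Within the 2 series of library codes the difference from MSC was -1.60 and -1.86. The sum of the 12 macrophage markers had the same order of groups, at 26903 to 27077 CPM in MSC, 33534 to 34045 CPM in MSC+RAW-TW and 14508 to 14958 CPM in MSC+RAW-LPS-TW, with 12 of 12 markers at 1 CPM or more in each. Not every marker followed the sum: Cd14, 1 of the 12, had means of 708, 495 and 1092 CPM in MSC, MSC+RAW-TW and MSC+RAW-LPS-TW. The part of these markers in the Pycard difference was not tested. Stromal markers summed to 2876 to 3038, 2659 to 2693 and 4035 to 4117 CPM in the same order of groups. Neutrophil markers stood at 11.7 to 16.5, 31.7 to 34.6 and 370 to 557 CPM, and osteoclast markers at 90.1 to 93.7, 133 to 134 and 823 to 888 CPM. Only 1 or 2 of the 10 neutrophil markers reached 1 CPM in each library, and 3 of the 6 osteoclast markers. These sums thus rest on few genes. The Pycard promoter is shown as that of the member with this fall, 200 bases of chr7:127993868-127994067 on the minus strand, with the reverse complement of the same core in capitals at -42 to -37.
Pycard: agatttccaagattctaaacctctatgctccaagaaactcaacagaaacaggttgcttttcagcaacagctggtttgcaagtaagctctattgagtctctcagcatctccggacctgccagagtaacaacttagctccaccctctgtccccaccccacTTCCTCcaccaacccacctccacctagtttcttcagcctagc
It held no match to the κB site, by its usual consensus, and no TTTCNNTTTC, the letters of the interferon-stimulated response element.

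Casp1 was at 36.6 and 45.0 CPM in MSC, at 13.0 and 11.3 CPM in MSC+RAW-TW, and at 47.5 and 45.1 CPM in MSC+RAW-LPS-TW. The low group was therefore the untreated co-culture. Against it, the LPS co-culture was higher by 1.89 ± 0.22 (3.71-fold, edgeR adjusted p = 9.3e-06), whereas against MSC the difference was 0.18 ± 0.16 (edgeR adjusted p = 0.523). MSC+RAW-TW was lower than MSC by -1.71 ± 0.22 (edgeR adjusted p = 0.0002).

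Casp4 was at 11.5 and 13.4 CPM in MSC, at 6.48 and 6.64 CPM in MSC+RAW-TW, and at 28.0 and 23.1 CPM in MSC+RAW-LPS-TW, with no overlap. The LPS co-culture was higher than MSC by 1.04 ± 0.19 (2.05-fold, edgeR adjusted p = 0.00102) and than MSC+RAW-TW by 1.93 ± 0.26 (3.82-fold, edgeR adjusted p = 3.22e-05). The first call sat at the fold limit and was lost without MSC library 1 (0.93) and without MSC+RAW-LPS-TW library 1 (0.87). Casp4 and Nlrp3 are shown because they rose in both LPS comparisons and were the 2 of 8 members in the promoter table with a match to the κB consensus, the site of the NF-κB factors. That consensus was found in 4.51% of all windows and in 3 of the 11 windows of these 8 members. The 2 Casp4 windows overlap and hold the same matched stretch. The stretches are chr9:5308649-5308848 for Casp4 and chr11:59541369-59541568 for Nlrp3 at its upstream start, both plus strand, with the match in capitals.
Casp4: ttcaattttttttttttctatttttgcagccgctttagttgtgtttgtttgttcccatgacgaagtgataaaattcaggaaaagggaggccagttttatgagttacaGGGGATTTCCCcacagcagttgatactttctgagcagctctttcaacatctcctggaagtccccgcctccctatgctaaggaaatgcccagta
Nlrp3: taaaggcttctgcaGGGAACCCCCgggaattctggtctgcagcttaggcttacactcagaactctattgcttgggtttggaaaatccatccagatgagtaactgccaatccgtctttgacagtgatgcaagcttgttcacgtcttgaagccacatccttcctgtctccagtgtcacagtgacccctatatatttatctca
The Casp4 capitals hold overlapping matches between -93 and -83, and the Nlrp3 match, at -186 to -177, reads on the opposite strand. A match of letters is not a site in use. TTTCNNTTTC (3.44% of windows), the AP-1 letters TGANTCA (7.81%) and the STAT letters TTCNNNGAA (8.30%) were in none of the 11 windows of these 8 members. Gsdmd was not matched in the promoter table.

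Gsdmd was at 60.5 and 53.0 CPM in MSC, at 115 and 114 CPM in MSC+RAW-TW, and at 61.0 and 71.0 CPM in MSC+RAW-LPS-TW. Here the untreated co-culture was the high group. It was above MSC by 1.04 ± 0.18 (2.06-fold, edgeR adjusted p = 0.000962). The LPS co-culture was below it by -0.83 ± 0.18 (1.77-fold, edgeR adjusted p = 0.0022, under the fold limit) and above MSC by 0.21 ± 0.16 (edgeR adjusted p = 0.396). With GC and length trends removed, the difference between the co-cultures was -0.42 and missed the p threshold (edgeR adjusted p = 0.0664).

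Against MSC+RAW-TW, the comparison that asks what LPS treatment of the RAW264.7 cells changed, 7 of 9 members were called. Nlrp3, Nlrc4, Casp1 and Casp4 rose, and Nlrp1a, Nlrp1b and Pycard fell. Of 20499 genes tested, 27.4% were called, and the members' median log2 fold change was -0.32, beside 0.14 over all genes tested. MSC+RAW-TW counted as 1 sample here, whose spread was assumed to be that of the other groups. The MSC+RAW-TW libraries had GC correlations of 0.374 and 0.378, apart from both other groups. With GC and length trends removed, 7 members were called, with Casp1 at 1.20 and Casp4 at 1.02 in place of 1.89 and 1.93. In all 4 comparisons each called member had the same sign within both series of library codes. Each near-identical pair has a library in either series, so these values are not independent where sham or MSC+RAW-TW enters. The plot of fitted differences sets both values beside each other.

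In MSC+RAW-TW against MSC, 4 of 9 members were called, with Gsdmd higher and Nlrp1a, Nlrc4 and Casp1 lower. Here too MSC+RAW-TW was 1 sample, and the spread behind each p came from the other groups. Among all genes 16.4% were called. The members' median log2 fold change was -0.72, beside -0.13 over all genes tested. Nlrc4 was lower by -1.12 ± 0.25 (edgeR adjusted p = 0.00408). Pycard was higher by 0.54 ± 0.18 (1.46-fold, edgeR adjusted p = 0.0351) and Casp4 lower by -0.90 ± 0.25 (1.86-fold, edgeR adjusted p = 0.0137), both under the fold limit. Pycard missed the p threshold without MSC library 1 (edgeR adjusted p = 0.193), MSC library 2 (0.145) or MSC+RAW-TW library 2 (0.0511), and Casp4 without MSC library 2 (0.0723). These calls changed with the GC and length trends. With GC and length trends removed, 1 member stayed called, Casp1 at -1.05 (edgeR adjusted p = 0.00300), while Gsdmd was at 0.69, Nlrc4 at -0.74 and Casp4 at 0.01. The Gsdmd call was also lost without MSC library 2 (0.95), when 2 members were called, and at the fold limit in a fit of these groups alone (1.00).

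**Figure D3:**
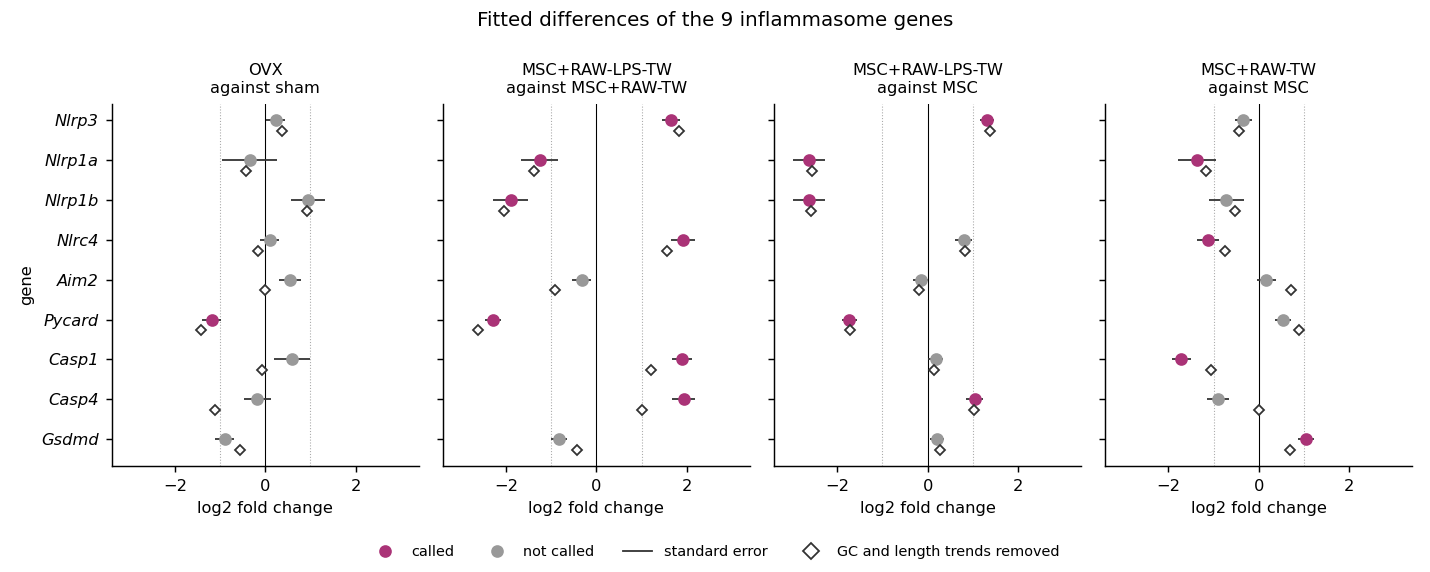
Log2 fold changes of the 9 genes in the 4 comparisons from the edgeR fit, with bars for the standard error, purple points for called genes and grey points for genes not called. Open diamonds give the value with GC and length trends removed and dotted lines the fold limit. The diamonds lie near the points for MSC+RAW-LPS-TW against MSC and move toward 0 for Casp1, Casp4, Nlrc4 and Gsdmd in MSC+RAW-TW against MSC.

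Il1b and Il18, whose products caspase-1 cuts, and the cytokine gene Il1a were set against these values. Il1b was at 18.9 and 15.8 CPM in MSC, at 21.7 and 22.3 CPM in MSC+RAW-TW, and at 6393 and 8164 CPM in MSC+RAW-LPS-TW. It was 418-fold higher in the LPS co-culture than in MSC (8.71 ± 0.23, edgeR adjusted p = 1.66e-12). Il1a was at 0.959 and 0.909 CPM in MSC, rested on 7 and 0 counts in MSC+RAW-TW, and was at 979 and 1275 CPM in MSC+RAW-LPS-TW (1196-fold over MSC). Il18 did not follow. It was at 7.33 and 11.995 CPM in MSC, at 1.69 and 2.91 CPM in MSC+RAW-TW, and at 3.93 and 3.44 CPM in MSC+RAW-LPS-TW, and was lower than in MSC in both co-cultures (-1.39 ± 0.29 with LPS and -2.07 ± 0.38 without).

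Of the 75 genes of the 7 lists, 67 were tested in this experiment. In MSC+RAW-LPS-TW against MSC, 13 were called higher and 7 lower (29.9%, background 10.9%). The lists were chosen with earlier results of these data known, so a share above the background, here or below, is a description only. Among 18 upstream genes, the guanylate-binding proteins Gbp2 (1.90 ± 0.16), Gbp3 (2.79 ± 0.16) and Gbp5 (3.19 ± 0.19), which expose LPS to caspase-11, rose. The ATP-gated channel gene P2rx7 (-1.41 ± 0.17), the channel gene Panx1 (-1.38 ± 0.21) and the LPS receptor gene Tlr4 (-1.16 ± 0.18) fell. Of 10 inhibitors tested, 3 rose, and neither edgeR nor DESeq2 called any lower, with 0 lower at an unadjusted edgeR p under 0.05. These were Tnfaip3, which encodes the ubiquitin-editing enzyme A20 (3.44 ± 0.17), Birc3 (2.67 ± 0.17) and Cflar (1.30 ± 0.15).

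Of 11 other sensors tested, Mefv (2.89 ± 0.24), which encodes pyrin, and Nod2 (1.35 ± 0.23) rose, and Nlrc3 (-2.52 ± 0.28) and Naip6 (-1.09 ± 0.25) fell. Mefv and Il1b are labelled in the same heat map of the study. Of the 10 DNA sensors and HIN-200 genes, Ifi205 (2.22 ± 0.18), Ifi211 (1.15 ± 0.15) and Zbp1 (1.10 ± 0.15) rose, and Tmem173, which encodes STING, fell (-1.13 ± 0.15). None of the 10 genes of other death caspases and necroptosis was called by edgeR or DESeq2 in this comparison, with 2 higher and 2 lower at an unadjusted edgeR p under 0.05. Neither tool called the 2 tested genes of pore formation, of which 1 passed the unadjusted p. Gsdme was at 0.83 ± 0.19 (edgeR adjusted p = 0.00492) and Ninj1 at 0.12 ± 0.16 (0.687).

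Against MSC+RAW-TW, 24 genes of the lists were called higher and 7 lower (46.3%, background 27.4%). The inhibitors had 6 of 10 called higher. Their median was 1.55 on the log2 scale, beside 0.14 over all genes tested, and Tnfaip3 at 4.35 ± 0.24 had the highest of these. Gsdme was called here (1.57 ± 0.25), as were Mlkl, the effector of necroptosis (1.48 ± 0.20), and Naip2 (1.20 ± 0.24), the partner of Nlrc4 for secretion system proteins. Fadd, an adaptor of death receptors, was lower (-2.09 ± 0.22), and so were Txnip (-1.18 ± 0.21), P2rx7 (-1.76 ± 0.19), Panx1 (-1.82 ± 0.24), Tmem173 (-1.89 ± 0.18), Nlrx1 (-1.02 ± 0.26) and Nlrc3 (-3.01 ± 0.31). The guanylate-binding protein genes Gbp2 (2.57 ± 0.22), Gbp3 (3.33 ± 0.22) and Gbp5 (3.24 ± 0.25) rose here too, as did Mefv (2.15 ± 0.30), Ifi205 (2.05 ± 0.23) and Nod2 (1.69 ± 0.30). The other genes called higher were Il1a, Il1b, Birc3, Trim30a, Xiap, Cflar, Birc2, Ifi211, Casp6, Ifi203, Casp12, Cd14, Gm12250 and Ddx3x. In MSC+RAW-TW against MSC, 2 genes were called higher (Nlrx1 and Fadd) and 10 lower (17.9%, background 16.4%). The 10 were Il1a, Il18, Birc2, Casp12, Ifi203, Naip6, Cgas, Xiap, Trim30a and Gm12250. With GC and length trends removed, 6 list genes were called.

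**Figure D4:**
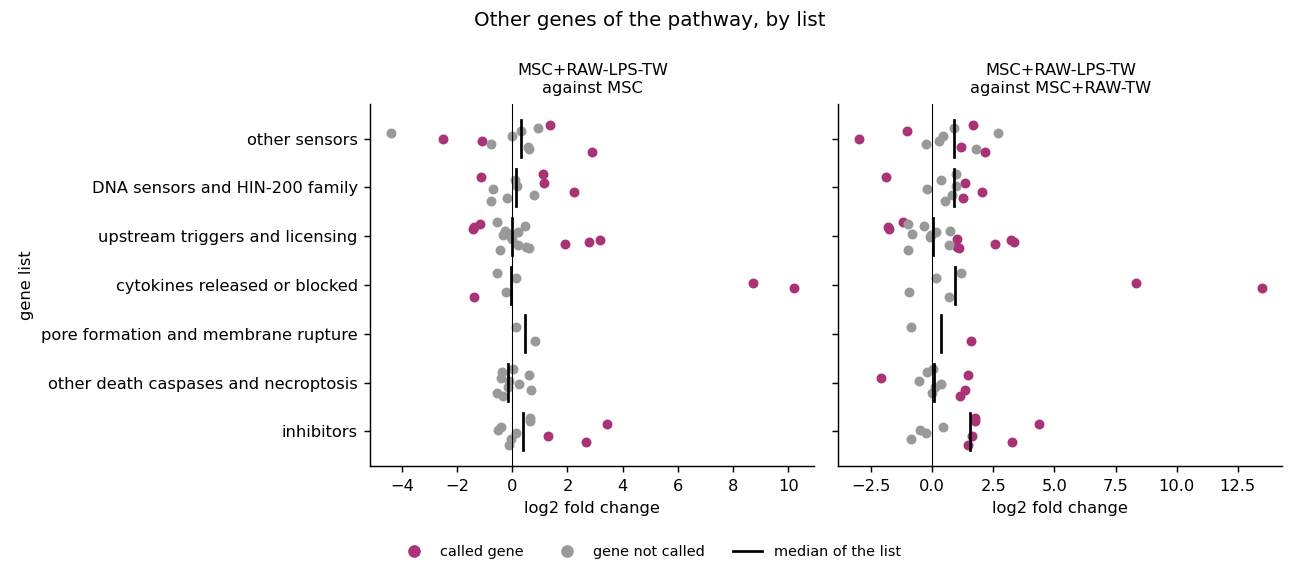
Log2 fold changes of the other pathway genes in MSC+RAW-LPS-TW against MSC (left) and against MSC+RAW-TW (right), by list, with called genes in purple, genes not called in grey and a line at each list's median. Il1a and Il1b are the rightmost points in both panels, and the called inhibitors lie right of 0 in both.

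Genes whose pattern was nearest to each called member were searched among 12514 genes, by the root mean square difference of centred log2 CPM over 10 samples. Aim2 was called in no comparison and was left out of this search. This is a description over few samples that share groups. Gsdmd was matched most closely, by Klhdc3 (0.08), Aldh3b1 (0.09) and Slc25a39 (0.09), and Casp4 by Maob (0.09), Iigp1 (0.18) and Slc36a4 (0.20). Nlrc4 was nearest to Slc36a4 (0.10), Ccdc149 (0.12) and Tent5a (0.13), Casp1 to Nmd3 (0.11), Pnpt1 (0.12) and Mfsd8 (0.14), and Nlrp3 to Timp3 (0.12), Mast4 (0.14) and Ifi211 (0.15). Pycard was nearest to Fmnl1 (0.15), Sfxn5 (0.19) and Sh2d1b1 (0.20), and Nlrp1b to Tbc1d4 (0.22), Arhgap15 (0.26) and Tmem273 (0.26). Nlrp1a had no near match, with 4930430E12Rik (0.40) and Rps15a-ps6 (0.40) the nearest and Hip1 at 0.42.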

How the data were processed

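RNA-seq of 12 mouse libraries was used, with groups taken from the sample labels. Per the methods, the authors sequenced poly(A) RNA from a directional kit as read pairs, trimmed them with Trim Galore 0.6.7, aligned them to GRCm38 with HISAT2 2.1.0 and counted genes with featureCounts 2.0.1. The values deposited are unnormalized counts for each gene and library, and strand and pair settings are not given in the sources used here. Each count table also holds the exon length in bp, used for RPKM and the length trend. GC content was that of the longest GENCODE transcript of each gene. Even numbers made up 60.0% to 71.4% of counts from 1 to 20, so counts are not independent molecules.

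Gene names came from GENCODE M21 and cover 55141 of 55487 identifiers. Columns of the MSC+RAW-TW and MSC+RAW-LPS-TW libraries give the group but not which sample, so their library numbers are names. The near-identical libraries were summed (chi-square ratio 2.51 to 3.26 over sampling noise at low and high counts, against 18.5 or more at high counts for the other pairs). Tests used edgeR 4.0.16 (R 4.3.3, limma 3.58.1) with TMM scaling, filterByExpr and the quasi-likelihood F-test with Benjamini-Hochberg adjustment, in 1 fit per experiment. Calls needed both a 2-fold difference or more and an adjusted p no higher than 0.05. Scripts were tested on simulated data. SE was the log2 fold change divided by the square root of F. CPM was scaled by TMM per experiment, so CPM and RPKM are not compared by a test across experiments.

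Alternatives were DESeq2 1.42.0, RLE scaling, no filter on low counts, a mean of at least 1 CPM, no fold limit, all libraries kept apart, the replicate number as a block, lowess trends (span 0.3) on GC and length removed, each library left out, and fits of only the 2 groups compared. The series of library codes as a block was chosen after seeing the data, as was the Y-linked list. All members are named in each comparison, with called list genes and those named for their role, and for each called member the 3 genes of smallest root mean square difference. Members and lists were chosen with earlier results of these data known. Of 78 list symbols 75 were found, and Cd14 is both a list gene and a macrophage marker. Promoters are RefSeq windows from 250 bases before to 50 after a start (GRCm38.p6), found for 8 of 9 members. Tables were handled in pandas 2.3.3 (numpy 2.4.6, python 3.11.15) and plots in matplotlib 3.10.9.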

Additional observations from a re-analysis of the deposited data

How the results depend on the processing

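In the OVX comparison the number of genes called varied widely. Called genes numbered 1419 in the fit reported, 2193 with no fold limit, 590 with GC and length trends removed, and 309 to 2390 when libraries were left out (309 without OVX library 2, 678 without OVX library 1, 2390 without sham library 1). Members called were 1, and 2 with no fold limit or with the replicate block together with GC and length trends removed, and 0 to 2 when libraries were left out. With GC and length trends removed, Nlrc4 was at -0.15 and Casp1 at -0.08. With the replicate block added, Nlrc4 was at -0.17, Aim2 at -0.08, Casp1 at -0.04 and Casp4 at -1.20, which was then called. With libraries left out, Nlrp1a ran from -1.01 to 0.96 and Casp4 from -0.50 to 0.25, each highest without both near-identical sham libraries, and Casp4 was at 0.00 without OVX library 3. Apart from Casp4 at -1.20, none of these values was called.

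The replicate numbers of OVX and sham do not pair the libraries: deviations of same-numbered libraries correlated at 0.41, -0.03 and 0.35, and OVX library 2 correlated best with sham library 1 (0.06). With the replicate block alone, 2117 genes and 1 member were called. Casp1 was then at 0.68 (edgeR adjusted p = 0.00421) and Nlrp1b at 0.88 (0.0362), both under the fold limit. With libraries kept apart and no block, Casp1 was at 0.73 (edgeR adjusted p = 0.157) and Nlrp1b at 0.93 (0.0581). In the MSC experiment no fit with the replicate number was made, because the columns of both co-culture groups carry no usable numbers. The series of library codes as a block gave 6629 genes and 7 members for the LPS against the untreated co-culture, 2383 and 5 for the LPS co-culture against MSC, and 4489 and 4 for the untreated co-culture against MSC.

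In MSC+RAW-LPS-TW against MSC, 2243 genes were called, and 4286 with no fold limit. With libraries left out, Aim2 ran from -0.34 to 0.00, the latter without MSC+RAW-LPS-TW library 2. In MSC+RAW-TW against MSC, 3360 genes were called, 5862 with no fold limit and 2165 with GC and length trends removed. There 4 members were called, 1 with GC and length trends removed and 2 to 4 when libraries were left out, and Casp4 was at 0.01 with the trends removed. In the comparison of both co-cultures, genes called stayed within 1.5 times of 5624 in each alternative run, and members called at 6 to 8. MSC+RAW-TW could not be left out whole, and a group left with 1 library was assumed to vary like the others. Leaving the near-identical libraries apart gave 1818, 6718, 2412 and 4574 genes in the order OVX, LPS co-culture against untreated, LPS co-culture against MSC, and untreated co-culture against MSC. Depth limits Nlrp1a most, at 16 to 39 counts in BMM libraries.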
